A study of Arabidopsis thaliana with 12 samples.

Results

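Long noncoding RNA genes of Arabidopsis thaliana were described by the CpG methylation of their bodies in DNA of plants whose roots were cut off. Every locus was taken that the RefSeq annotation of TAIR10.1 gives the biotype lncRNA or antisense_RNA on chromosomes 1 to 5 and that held at least 10 CpG cytosines with reads. Of the 3559 loci with these biotypes, among 37899 annotated loci of all kinds, 2874 (80.8%) passed. They fell into 1208 loci that share at least 1 base with a protein-coding gene, of which 1163 are lncRNA and 45 antisense_RNA, and 1666 loci that overlap none, all of them lncRNA. The other 685 loci had fewer than 10 covered cytosines, and 682 of these simply list fewer than 10 in the genome.

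The study asked how the plant methylome answers a defense inducer and a pathogen. Its labels give 12 enzymatic methyl-seq libraries of ecotype Col-O (spelled so), 4 from plants treated with SA-CNPs (chitosan nanoparticles loaded with salicylic acid), 4 from plants given the pathogen (the powdery mildew fungus Podosphaera xanthii) and 4 of the Control. According to the methods all plants were wild-type seedlings on agar medium whose roots were cut off. The CpG values come from 1 table that pools libraries, and which libraries were merged is not stated, so its condition is unknown, no treatment was compared with another and no value has a replicate error.

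Long noncoding RNAs are transcripts that are not translated into a protein, and some regulate the gene they lie in or next to, often from the opposite strand. In plants, CpG methylation is copied by the maintenance methyltransferase MET1 and takes distinct forms: transposons and their remains are methylated densely, while many steadily transcribed genes carry CpG methylation in the interior of the body and little at their ends. A noncoding locus can lie in either setting or in unmethylated DNA between genes.

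The level of a locus is the share of methylated calls among all calls in its CpG cytosines, and it is given with its 95% Wilson interval where it is described in full. These intervals cover counting error only, and they treat calls as independent although 1 read can give several. The median nuclear cytosine had 58 reads (5th to 95th percentile 35 to 78), and the members held 98589 different covered cytosines, 1.80% of the nuclear total. Chloroplast DNA, taken as unmethylated, had a level of 0.367% (95% interval 0.366 to 0.368%) measured in the same way, which served as the background of conversion and sequencing error. The nuclear level was 26.6%.

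Most long noncoding RNA genes were unmethylated in both classes. The median level was 0.476% (95% interval from ranks 0.428 to 0.552%) over the 1208 loci overlapping a protein-coding gene, and 0.401% (0.356 to 0.441%) over the 1666 loci overlapping none. A level under 5% was found at 856 overlapping loci (70.9%) and at 1283 loci overlapping none (77%), against 48.4% of all 35798 annotated loci with at least 10 covered cytosines. At 25% or more stood 222 overlapping loci (18.4%) and 322 overlapping none (19.3%), against 28.9% of all annotated loci. The classes thus had nearly the same share of methylated loci.

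The methylated loci of the classes differed in how high they stood. Among overlapping loci 172 (14.2%) lay at 25% to under 75% and 50 (4.14%) at 75% or more. Among loci overlapping none the order was turned round, with 89 (5.34%) at 25% to under 75% and 233 (14%) at 75% or more. Over all annotated loci the 2 shares were 14.5% and 14.4%. The remaining range, 5% to under 25%, held 130 overlapping loci (10.8%) and 61 overlapping none (3.66%), against 22.7% of all loci. The upper quartile was 11.9% in overlapping loci and 1.45% in loci overlapping none, whereas the 90th percentile was 48.5% and 86.8% in the same order.

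The members were shorter than most genes. Their median length was 466.5 bp in overlapping loci and 343 bp in loci overlapping none, against 2093 bp in protein-coding genes. Windows of 400 bp were therefore set beside the members. Inside protein-coding genes, 59.5% of 127239 windows were under 5%, 9.64% at 5% to under 25%, 23.2% at 25% to under 75% and 7.65% at 75% or more. Overlapping loci, with 18.4% at 25% or more, compared with 30.8% of these windows. Outside every annotated locus, 58.2% of 66994 windows were under 5%, 3.08% at 5% to under 25%, 7.21% at 25% to under 75% and 31.5% at 75% or more. Loci overlapping none, with 14% at 75% or more, thus compared with 31.5% of windows, and with 5.34% against 7.21% at 25% to under 75%. The 400 bp windows were taken along whole chromosomes and were not matched to the members by position. Of the 1666 loci overlapping none, 125 lay in 500 kb windows where pseudogenes outnumber protein-coding genes. There 56% stood at 75% or more, against 10.6% elsewhere. The part of position in the differences between loci and 400 bp windows was not tested. Neither difference was tested, since regions of 1 table are not replicates.

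**Figure D1:**
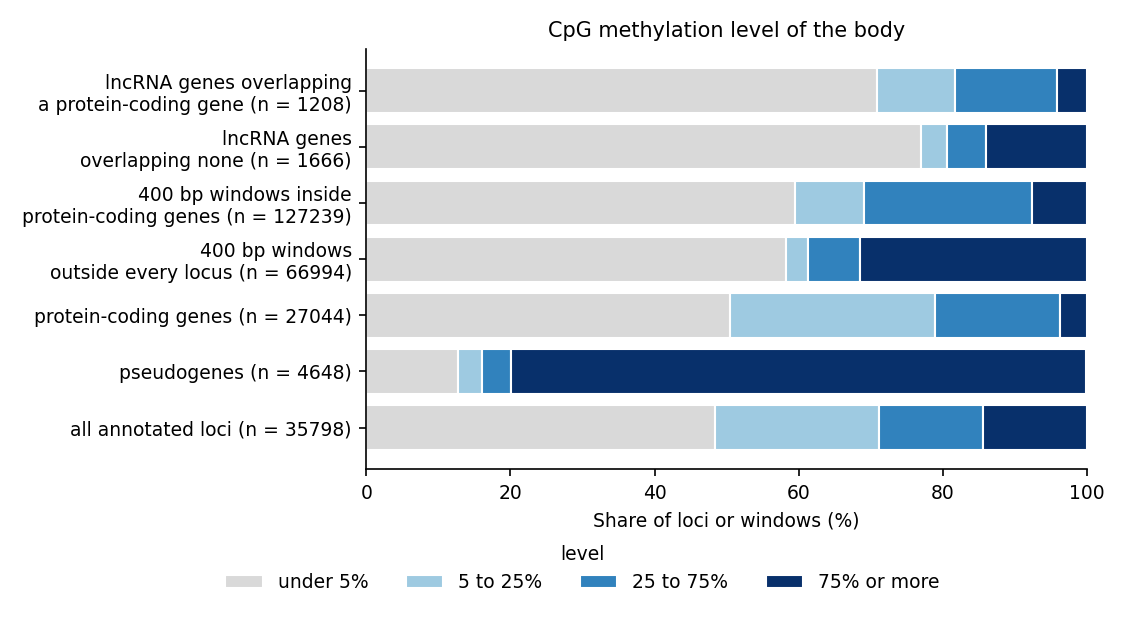
Share of loci or windows (%) in 4 ranges of CpG methylation level, for both classes of long noncoding RNA gene (lncRNA in the plot) and for comparison regions with at least 10 covered cytosines. The 75% or more range is 4.14% of overlapping loci and 14% of loci overlapping none, against 79.9% of pseudogenes and 3.67% of protein-coding genes.

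Most of the low loci could not be told from the chloroplast level. Of the 856 overlapping loci under 5%, the interval held the chloroplast level at 554, was wholly above it at 161 and wholly below it at 141. For the 1283 loci overlapping none the same counts were 915, 210 and 158. The low loci had medians of 0.267% and 0.239% in the same order of classes, under the chloroplast level. That level was therefore not a floor for nuclear loci, and their own error background may be lower. No methylated call at all was seen at 135 overlapping loci and 243 loci overlapping none, where the counting interval still allowed levels of up to 1.36% and 1.10% in the same order. At loci whose interval held the chloroplast level, methylation above that background was not detectable at this depth. The class medians of 0.476% and 0.401% stood close to it as well. The interval of the overlapping median (0.428 to 0.552%) lay wholly above the chloroplast level, and that of loci overlapping none (0.356 to 0.441%) held it.

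Biotype antisense_RNA was carried by 45 members. Its median was 0.398% and 8 loci (17.8%) were at 25% or more, against 18.4% of the 1163 overlapping lncRNA loci. By place of the overlap, 744 loci lay inside the gene, 374 crossed an end of it and 90 held the whole gene. At 25% or more were 163 (21.9%) of those inside, 38 (10.2%) of those crossing an end and 21 (23.3%) of those holding the gene.

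Loci at the limit of 10 cytosines were counted on both sides of it. Of 245 loci with exactly 10 covered cytosines the median was 0.372%, with 37 at 25% or more. Just outside, 11 loci with 9 cytosines had a median of 0.467% and 2 at 25% or more, and 234 loci with 8 had a median of 0.412% and 33 at 25% or more.

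The setting of the highly methylated loci was examined next, through the DNA around them. Pseudogene is the biotype under which the annotation used here lists transposon remains among other sequences, and the 4648 pseudogenes measured had a median of 87.5%. Of the 233 loci overlapping none at 75% or more, the median level of the 1000 bp on both sides was 74.7%, and 205 had flanks at 25% or more. For the 1283 loci overlapping none under 5% the flanks had a median of 0.548%, and 163 had flanks at 25% or more. The nearest pseudogene lay at a median distance of 3455 bp from the high loci and 27237 bp from the low ones.

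Among loci beside but not sharing bases with a pseudogene, the share of highly methylated ones was larger at short distances. Of loci overlapping none, 53 of 149 (35.6%) at a distance of 1 to 1000 bp stood at 75% or more, as did 90 of 278 (32.4%) at over 1000 to 5000 bp, 44 of 378 (11.6%) at over 5000 to 20000 bp and 45 of 845 (5.33%) farther away. Among overlapping loci, the shares at 75% or more over the same distances were 7.69%, 14.6%, 4.87% and 2.47%. The 25% to under 75% range of overlapping loci held 13.5% at over 5000 to 20000 bp and 13.3% farther away. The highest share of that range, 23.3%, stood at over 1000 to 5000 bp. Only 26 overlapping loci lay at 1 to 1000 bp, so their shares are imprecise. The loci that share bases with a pseudogene did not continue the order, since 1 of 16 loci overlapping none (6.25%) and 0 of 3 overlapping loci stood at 75% or more.

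**Figure D2:**
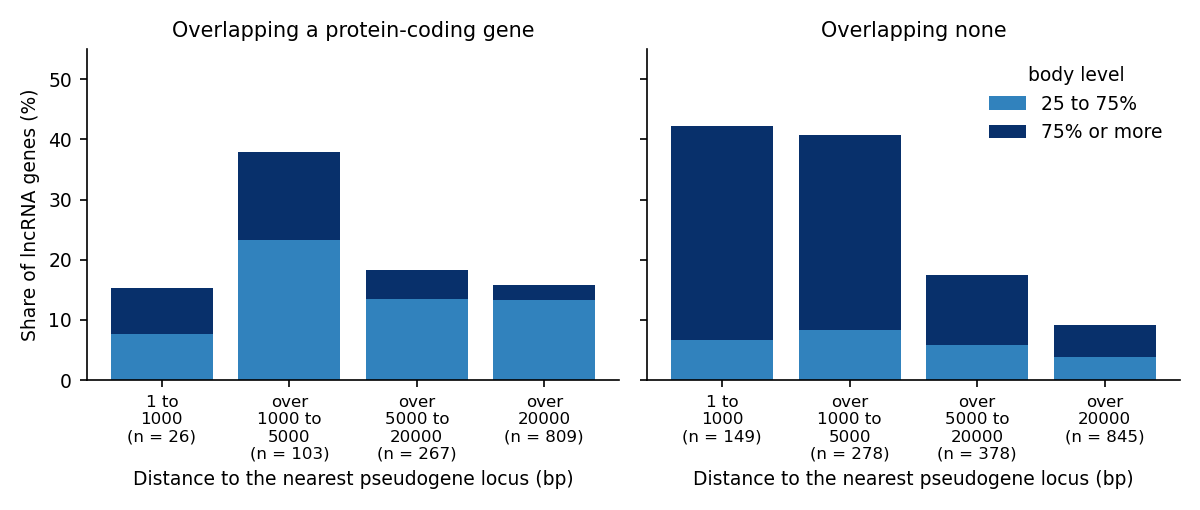
Share of long noncoding RNA genes (%) with a level of 25 to 75% (light blue) or 75% or more (dark blue) by distance to the nearest pseudogene locus (bp, 4 ranges, without the loci that share bases with one), overlapping loci in the left panel and loci overlapping none in the right. The dark part makes up 35.6% of loci at 1 to 1000 bp and 5.33% over 20000 bp in the right panel, and at most 14.6% in the left.

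Windows along the chromosomes showed the same order. In 32 of 240 windows of 500 kb pseudogenes outnumbered protein-coding genes. These windows held 125 loci overlapping none with a median of 82.5%, and 70 (56%) stood at 75% or more, against 163 of 1541 (10.6%) elsewhere. The 24 overlapping loci there had a median of 69.9%, and 12 (50%) stood at 75% or more, against 38 of 1184 (3.21%) elsewhere. Outside these windows the medians were 0.462% and 0.360% in the same order of classes. Between chromosomes, the share of loci overlapping none at 25% or more ran from 10.8% on chromosome 5 to 27.5% on chromosome 3.

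Read depth moved with these levels. Loci overlapping none at 75% or more had a median of 50.2 reads per cytosine and 3.98% of their cytosines without reads, against 59.6 reads and 0.0311% at loci under 5%. Overlapping loci at 75% or more had 51.2 reads, against 57.3 under 5%. The part of depth in the difference was not tested.

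The profile across locus ends showed that high levels extended beyond the annotated transcript. In loci overlapping none at 75% or more, the mean cytosine level was 84.5% in the nearest 100 bp of flank and 54.5% at 1000 bp. In overlapping loci at 75% or more it was 76.5% in the nearest 100 bp and 43.9% at 1000 bp. Overlapping loci at 25% to under 75% were higher in the interior of the body, with a mean of 22.4% in the outermost and 56.7% in the innermost of 5 parts from end to middle. In loci overlapping none of the same range the means were 49.9% in the outermost part and 47.6% in the innermost. The annotation copy used here gives no strand, so the ends were folded together.

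**Figure D3:**
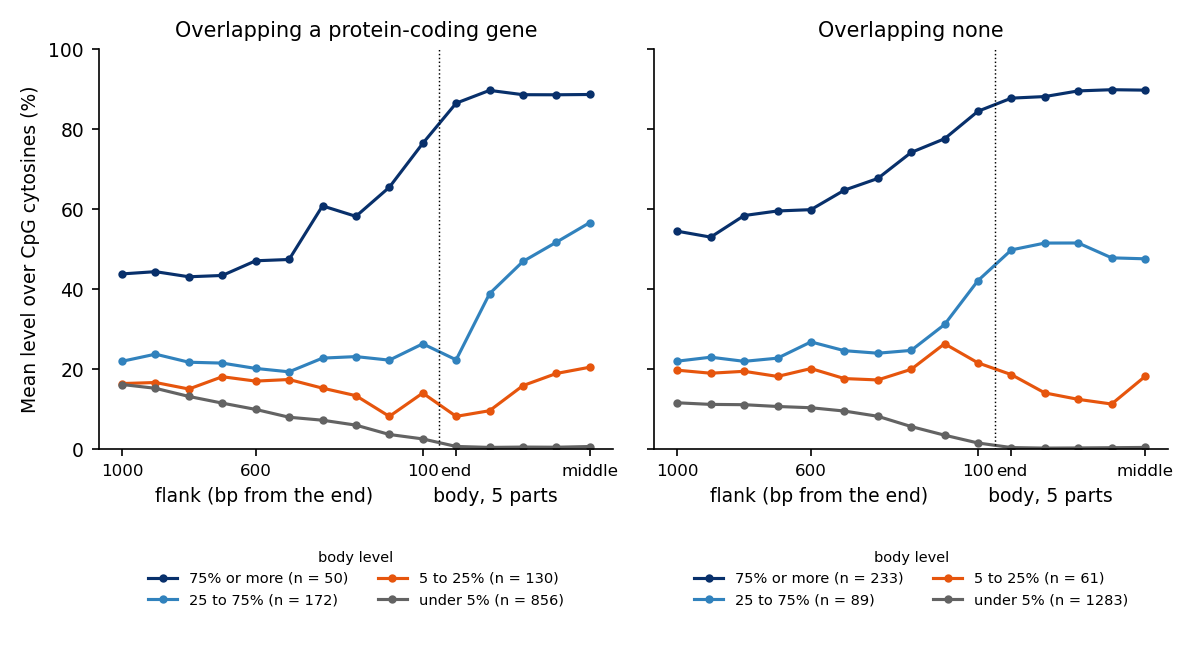
Mean level over CpG cytosines (%) in 100 bp steps of flank and in 5 equal parts of the body from the end to the middle, both ends folded together, by range of body level. At 25 to 75% the overlapping loci (left) have 22.4% in the outermost part and 56.7% in the innermost, and the loci overlapping none (right) 49.9% and 47.6%.

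Some high loci had flanks far below their own level. Flanks under 25% stood around 28 of the 233 loci overlapping none at 75% or more. AT1G05817 (chromosome 1, 8319663 to 8320431) had 93.4% (92.4 to 94.2%) over 64 cytosines, all of them above 75%, with flanks at 8.88% (17.2% on one side and 1.82% on the other). It lies beside INO, a YABBY transcription factor gene of ovule development, whose body had 0.386%. AT1G07483 (chromosome 1, 17837968 to 17838579) had 95.4% (94.7 to 96.0%) over 82 cytosines, again all above 75%, and its flanks had 18.1% (12.2% and 36.8%). The third of the highest loci among the 50 best covered was AT2G05825 (chromosome 2, 5081722 to 5082662), with 93.5% (92.7 to 94.2%) over 84 cytosines. Its flanks had 90.1%, so it lay in a methylated tract, unlike the other two.

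The lowest among the 50 best covered loci overlapping none included one at a sharp boundary. AT3G05445 (chromosome 3, 10491767 to 10492558) had 1 methylated call of 3916, a level of 0.0255% (0.00451 to 0.145%). One of its flanks had 0.169% and the other 70.8%, on the side of the pseudogene AT3G28157 at 91.7%. AT2G05555 (chromosome 2, 4222547 to 4223030) had 0.0805% (0.0274 to 0.236%), with one flank at 40.6% and the other at 0.658%. AT4G08585 (chromosome 4, 15457623 to 15458804) had 0.0801% (0.0273 to 0.235%) and flanks at 0.0992%.

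Loci under 5% were found inside pseudogene-rich windows as well. There were 41 of them among the loci overlapping none, with a median flank level of 20.8%, against 0.528% for the low loci of other windows. Over both classes, 5 loci under 5% had flanks at 75% or more (named here after their values were seen). AT1G08507 (chromosome 1, 23032347 to 23033035) was the lowest, with 0.0423% (0.00746 to 0.239%) over 34 cytosines between flanks of 76.8%. The others were AT1G04313 and AT1G36992, which overlap a gene, and AT2G06075 and AT2G05005.

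Loci that overlap a protein-coding gene were measured partly or wholly on that gene's own cytosines, since reads do not tell which transcript a cytosine belongs to. Of the 1208 loci, 767 lay wholly inside protein-coding genes. Where a locus reached beyond the gene, both stretches could be read, and 232 loci had at least 5 covered cytosines in each. The shared stretch had a median of 0.569% and the unshared stretch 0.380%. Methylation of 25% or more was found in both stretches at 13 loci, in the shared stretch alone at 21, in the unshared stretch alone at 4 and in neither at 194. The stretches lay within 5 percentage points of each other at 165 loci. The unshared stretch was lower by more than 5 points at 60 and higher by more than 5 at 7.

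**Figure D4:**
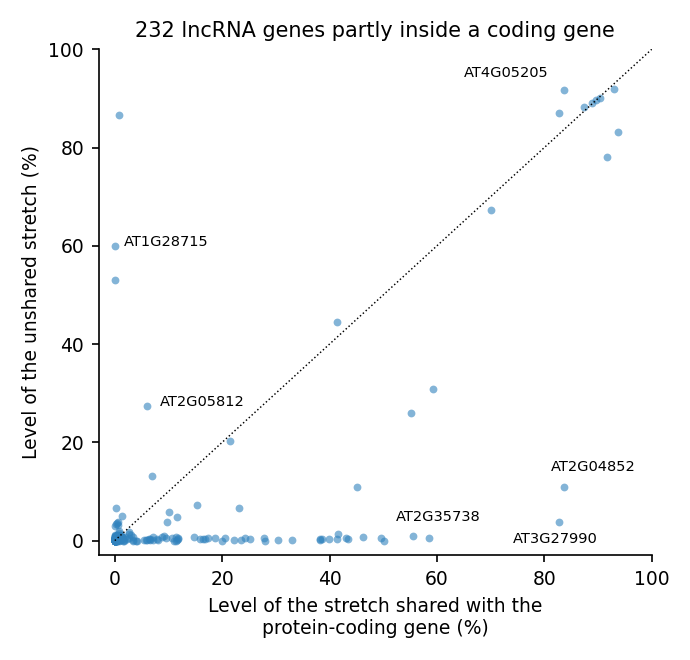
Level of the stretch shared with the protein-coding gene (x axis, %) and of the unshared stretch (y axis, %) for 232 overlapping loci with at least 5 covered cytosines in each. Each point is a locus and the dotted line marks equal levels. The points along the bottom include the 21 loci methylated in the shared stretch alone, and AT1G28715 stands at 60.0% in the unshared stretch.

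Among loci with at least 10 cytosines per stretch, 3 showed the largest drop outside the gene. AT3G27990 (chromosome 3, 10392571 to 10398235) had 82.6% (81.7 to 83.6%) where it holds the gene AT3G27980 and 3.81% (3.44 to 4.22%) over 160 cytosines beside it. AT2G04852 (chromosome 2, 1705148 to 1706465) had 83.6% (82.0 to 85.1%) inside AT2G04850 and 10.8% (9.04 to 12.9%) outside. AT2G35738 (chromosome 2, 15023487 to 15026812) holds INT3, of the inositol transporter family, and had 58.6% (57.6 to 59.6%) over it and 0.497% (0.228 to 1.08%) beside it.

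In the other direction, with the same limit of 10 cytosines per stretch, the 3 largest differences were at AT4G05205, AT2G05812 and AT1G28715. AT4G05205 (chromosome 4, 3758734 to 3759286) had 83.6% (80.4 to 86.4%) inside the gene AT4G06643 and 91.8% (90.1 to 93.2%) outside. AT2G05812 (chromosome 2, 2214334 to 2217448) had 6.004% (5.62 to 6.42%) inside AT2G05810 and 27.4% (24.5 to 30.6%) outside. AT1G28715 (chromosome 1, 10095813 to 10102928) had 0.118% (0.0207 to 0.663%) inside AT1G28815 and 60.0% (59.3 to 60.7%) over 286 cytosines outside. Among the 232 loci with at least 5 cytosines per stretch, AT4G05645 stood farther apart, with 0.862% over 6 shared and 86.7% over 36 unshared cytosines, and AT5G03275 had 0.132% over 10 and 53.1% over 6 (both named after their values were seen).

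AT1G28715 covers a row of tRNA genes. It holds 11 of them, each of 72 bp, with levels between 66.1% and 95.4% and a median of 93.0%. Over the 109 covered cytosines within tRNA genes the level was 90.9%, and over the 193 others it was 37.6%. Both flanks of 1000 bp were unmethylated, at 0.149% and 0.141%. Beyond the lower flank, between 10092801 and 10094244, the tRNA genes AT1G28780, AT1G28790, AT1G28800 and AT1G28810 had levels from 86.9% to 93.6%. The only other member that shares bases with a tRNA gene of at least 5 covered cytosines, AT1G18415 (named after its values were seen), had 1.27% and its tRNA gene 0.166%.

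The rest of the partner gene, outside the shared stretch, was measured for 926 loci with at least 10 covered cytosines there. The shared stretch had a median of 0.460% and the rest of the gene 7.59%. These medians are of pieces of unlike length. Overlapping loci had a median of 466.5 bp, and protein-coding genes that share bases with a member 2162.5 bp. The 400 bp windows inside protein-coding genes had a median level of 0.734%. The part of length in the difference between shared stretch and rest was not tested. At 25% or more stood 19% of the shared stretches and 23.9% of the rests. Both were at 25% or more at 79 loci, the shared stretch alone at 97 and the rest alone at 142. As whole genes, the 1302 protein-coding genes that share bases with a member had a median of 7.81% with 22.8% at 25% or more, and the 25742 others had 4.65% with 20.9%.

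Where along the gene the locus lay went with its level. Shared stretches were sorted by their centre into 5 equal parts from the gene's end to its middle. In the outermost part 6.64% of 211 shared stretches were at 25% or more, while 39.8% of the rests were. In the innermost part 33.3% of 171 shared stretches were at 25% or more, and 17.5% of the rests. The median of the shared stretch was 0.258% in the outermost part and 2.11% in the innermost.

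Highly methylated loci did not always share the level of the gene around them. Of the 50 overlapping loci at 75% or more, 39 had a measured rest of the gene, and it stood at 75% or more at 14, at 25% to under 75% at 16 and under 25% at 9. AT1G07887 (chromosome 1, 19963067 to 19964105; named after its values were seen, as are the next 2 loci) had 91.2% (90.1 to 92.1%) over 94 cytosines inside MRD1, whose other 58 cytosines had 0.265%. AT5G06595 had 79.6% (77.7 to 81.4%), with 0.251% in the rest of AT5G44585. AT3G08525 had 81.7% (78.5 to 84.4%) over 10 cytosines within SDIR1, a RING-type ubiquitin ligase gene of abscisic acid signalling, whose rest had 2.18%.

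Intermediate levels were composed differently in the classes. In the 172 overlapping loci at 25% to under 75%, 49.3% of covered cytosines were under 25%, 8.75% at 25% to 75% and 41.9% above 75%. In the 89 loci overlapping none, the shares were 34.6%, 26.8% and 38.7%. At least 1 low (under 25%) and 1 high (above 75%) cytosine occurred in 170 of the 172 overlapping loci. The same held for 71 of the 89 loci overlapping none. Whether an intermediate level of a single cytosine comes from different cells, different alleles or different merged libraries cannot be told apart in a pooled table.

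Low and high cytosines followed each other along the locus in runs. In overlapping intermediate loci there was a median of 5 runs, and 113 loci had at least 4. In loci overlapping none the median was 2 runs, and 60 of 89 had exactly 2. Among loci with up to 40 covered cytosines, 47 of 94 overlapping loci and 5 of 73 loci overlapping none had at least 4 runs.

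The best covered intermediate loci that overlap a gene were long and patchy. AT5G45472 (chromosome 5, 18421549 to 18431063), with 456 covered cytosines the best covered member, had 28.2% (27.6 to 28.7%), made of 290 cytosines under 25%, 39 between and 127 above 75%. AT1G44125 (chromosome 1, 16780241 to 16786828) lies inside AT1G44120, listed as CELLULOSE SYNTHASE INTERACTIVE 2, and had 50.3% (49.7 to 51.0%). It held 179 low and 221 high cytosines, while the remaining 48 cytosines of the gene had 0.199%. AT2G31902 (chromosome 2, 13560454 to 13569962), of biotype antisense_RNA, fills nearly all of the myosin gene XIF and had 42.1% (41.5 to 42.8%), with 183 low and 158 high cytosines. AT3G56408 (chromosome 3, 20915472 to 20921502) had 46.7% (45.9 to 47.4%) and holds AT3G56410 at 55.5%, with 0.839% over its 40 cytosines beside the gene.

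Among loci overlapping none, the best covered intermediate ones had very different surroundings. AT3G09465 (chromosome 3, 22377404 to 22378574) had 55.6% (54.1 to 57.2%) and flanks of 0.289%. From position 22377728 to 22378226, a stretch of 499 bp, 51 of its 52 covered cytosines were above 75%. AT4G05295 (chromosome 4, 4841574 to 4842389) had 60.6% (59.0 to 62.2%), one flank at 91.2% and the other at 1.82%. AT1G06963 (chromosome 1, 13501086 to 13502283) had 67.2% (65.6 to 68.7%) between flanks of 86.9% and 62.5%. AT3G29644 (chromosome 3, 11498879 to 11501424) had 38.9% (37.7 to 40.2%) between flanks of 86.3% and 84.9%, and shares bases with the pseudogene AT3G29642 at 85.9%. Just under the intermediate range, AT2G24755 (chromosome 2, 10541727 to 10549493), with 310 covered cytosines the best covered locus overlapping none, had 23.2% (22.6 to 23.9%) and lies over the pseudogenes AT2G24750 and AT2G24760.

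**Figure D5:**
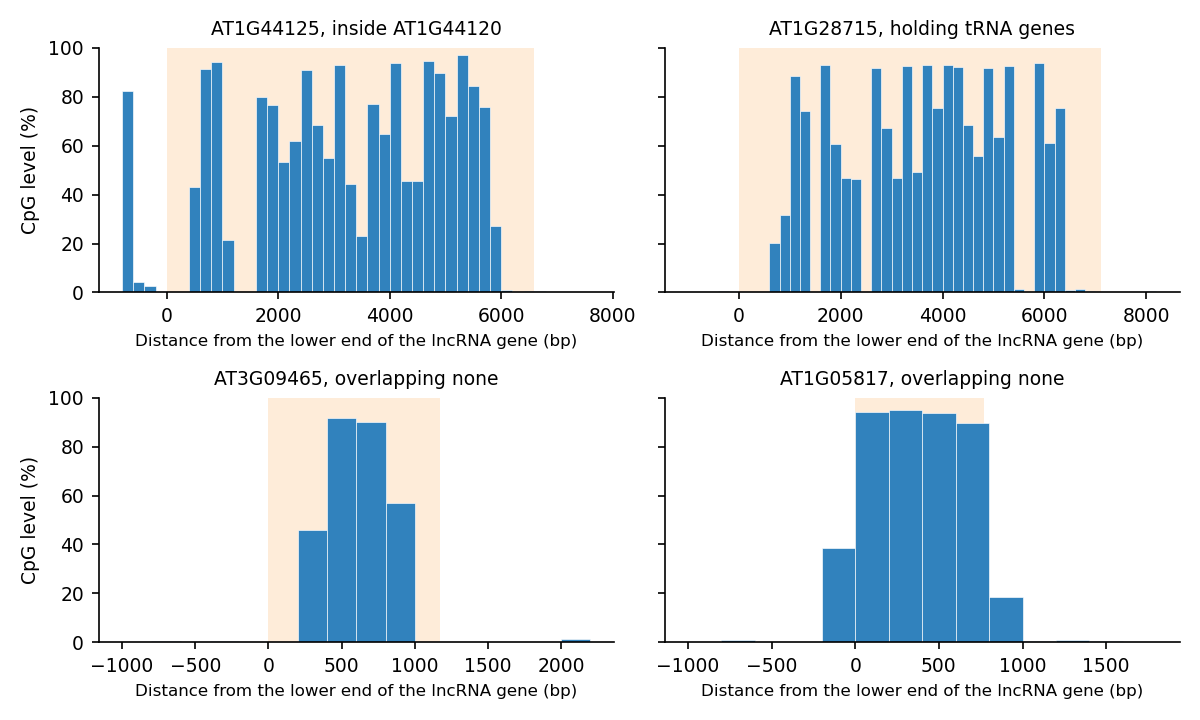
CpG methylation level (%, y axis) in steps of 200 bp along 4 named long noncoding RNA genes and 1000 bp on both sides, by distance from the lower end of the gene (bp, x axis). Shading marks the gene, and a step with no bar is near 0 or holds no covered cytosine. AT1G44125 and AT1G28715 (upper panels) are patchy with levels of 50.3% and 57.2% over the whole locus, AT3G09465 (lower left) holds 1 methylated stretch of 499 bp, and AT1G05817 (lower right) is methylated from end to end at 93.4%.

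A pair of members stood apart in depth. AT3G06355 (chromosome 3, 14199575 to 14200076) had 35.8% (35.7 to 35.9%) and shares bases with an rRNA gene, and AT3G06325 (chromosome 3, 14196558 to 14196865; named after its values were seen) had 34.0% (33.9 to 34.2%). Their mean depths were 15000 and 11839 reads per cytosine, against a median of 58 in the nuclear genome. Of 102 cytosines in AT3G06355, 70 were at 25% to 75% and none above. Whether these reads come from several genomic copies was not tested. AT3G06355 gave 1529945 of the 3777113 calls of the loci overlapping none and AT3G06325 gave 497254 of the 4035265 calls of the overlapping loci, so no level summed over the calls of a class is given.

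Some of the lowest loci lay in genes rich in CpG. AT4G37895 (chromosome 4, 17813545 to 17815178) had 7 methylated calls of 12279, a level of 0.0570% (0.0276 to 0.118%), and shares 1551 bases with EDA40, a gene named for arrested embryo sac development. AT3G09275 (chromosome 3, 22142893 to 22144281) had 0.0801% (0.0406 to 0.158%) inside AT3G59940. AT2G45685 (chromosome 2, 18820265 to 18821944) had 0.0929% (0.0519 to 0.166%) and lies over TCP9, a TCP transcription factor gene. Their densities were 6.98, 7.27 and 6.79 CpG sites per 100 bp in this order (each site has a cytosine on both strands), against a median of 2.83 over overlapping loci. Choosing among the best covered loci favors dense ones, so this contrast does not describe low loci in general. Over all 856 overlapping loci under 5% the median density was 2.96. Of the 316 overlapping loci with 4 or more CpG sites per 100 bp, 8.86% were at 25% or more, against 21.6% of the 352 loci overlapping none of that density.

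Well-studied noncoding RNAs were mostly listed under other biotypes. Of 18 IDs on a list of them, all were in the annotation and 2 were members. AT5G01675 (chromosome 5, 3173371 to 3179600) covers FLC, the MADS-box repressor of flowering, and had 0.530% (0.415 to 0.678%) over 222 cytosines, of which 221 were under 25%. FLC itself had 0.552% (0.431 to 0.707%). AT1G69572 (chromosome 1, 26161551 to 26162791) lies inside AT1G69570 and had 6.51% (5.74 to 7.37%), with 6 of 60 cytosines at 25% to 75% and none above. The remaining 40 cytosines of that gene had 0.635%, and the whole gene 4.35% (3.84 to 4.91%).

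Other genes that are known as partners of noncoding RNAs shared no base with a member and were unmethylated. PR1, the marker gene of salicylic acid signalling, had 0.2997% (0.167 to 0.536%). PID, a protein kinase gene of auxin transport, had 0.258% (0.184 to 0.362%), and the cold-response factor CBF1 had 0.290% (0.190 to 0.443%). DOG1, which controls seed dormancy, had 0.729% (0.573 to 0.928%), and the FLC relative MAF4 had 0.591% (0.444 to 0.788%). The intervals of DOG1 and MAF4 lay wholly above the chloroplast level of 0.367%. By contrast, AT2G34655 (APOLO), on the list of known noncoding RNAs but annotated as protein-coding, had 95.4% (94.6 to 96.1%) over 68 cytosines.

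Over all members together, both strands of a locus gave nearly the same level. Most members were under 5% (70.9% of overlapping loci and 77% of loci overlapping none), where the strands could differ little. The values below therefore say little about methylated loci, which were not taken apart. Over CpG pairs covered on both strands, the median difference per locus was 0.465 percentage points in overlapping loci and 0.419 in loci overlapping none. More than 10 points lay between the strands at 7 of 1207 overlapping loci and 6 of 1664 loci overlapping none. The largest differences were 21.1 points at AT1G05927 and 12.1 points at AT3G09445 (both named after their values were seen).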

How the data were processed

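Per the methods of the study, the authors ran Trimmomatic on the reads, mapped them with Bismark and Bowtie 2 to TAIR10.1, kept unique hits, removed duplicates and trimmed biased read ends. They deposited raw counts of methylated and unmethylated reads at each CpG cytosine of each strand, not normalized, for a pool of libraries that is not stated. No covered cytosine had fewer than 5 reads. Levels, 95% Wilson intervals, medians with 95% rank intervals and counts at 5%, 25% and 75% were computed from these counts for loci of the RefSeq annotation of TAIR10.1. No test was run, since 1 pooled table has no replicates and loci are not replicates.

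The members, lists and rules were chosen with earlier results of these data known. Loci named in the text were members of a list of known noncoding RNAs, and per class the 3 highest and 3 lowest of the 50 best covered loci, the 5 best covered intermediate loci and the best covered member. Added to these were the 3 loci with the largest difference between shared and unshared stretch in each direction, with at least 10 covered cytosines in each stretch. Others are marked. In simulated counts 200 of 2874 members were set to 40% and all other cytosines to 1%. All 200 were found at 25% or more, and none of the 2649 others that share no base with them. Calls were drawn independently at an even level, so this checked the computation only, not loci that mix low and high cytosines. The largest error of a changed member was 8.14 percentage points. Planned promoter levels were not run because no promoter table, strand or exons were used here, and no sequence is shown for the same reason. Alternatives were other coverage and cytosine minimums, removal of very deep cytosines, summed strands, mean cytosine levels, other overlap rules, other flanks, and subsets by biotype and position. Figures were drawn with matplotlib 3.10.9. Calculations ran in Python 3.11.15 with pandas 2.3.3, numpy 2.4.6 and scipy 1.17.1.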

Additional observations from a re-analysis of the deposited data

How the results depend on the processing

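Of 114 values recomputed under an alternative, 97 stayed within the tolerance (the interval of a median, or 1.5 times a count) and 17 did not. With a minimum of 1 read no value could change, because no covered cytosine had fewer than 5 reads. All 27 named loci kept their level within their interval with a minimum of 10 reads. That limit lies far below the 5th percentile of depth, 35 reads, so little could change there either. With both strands of a CpG summed, fewer loci reached the minimum (823 overlapping and 890 overlapping none). The overlapping median was then 0.569%. Of loci overlapping none, 194 (21.8%) were at 25% or more and 141 (15.8%) at 75% or more, against 19.3% and 14% as first measured. Of overlapping loci, 31 (3.77%) were at 75% or more, against 4.14%. A minimum of 20 cytosines left 820 and 886 loci, with an overlapping median of 0.561%. Then 192 (21.7%) and 139 (15.7%) loci overlapping none were at 25% and 75% or more, and 30 overlapping loci (3.66%) at 75% or more. In both settings the counts fell with the number of loci, while the shares stayed near those first measured. Biotype antisense_RNA alone left 45 overlapping loci, with a median of 0.398%, 8 at 25% or more and 1 at 75% or more, and gave no value for loci overlapping none. With at least 10 cytosines per stretch (146 loci), the shared median was 0.820% and 2 loci were methylated in the unshared stretch alone. Flank medians depended on the flank length: 0.711% for overlapping loci and 0.571% for loci overlapping none with 500 bp, 10.8% and 8.20% with 2000 bp, against 6.77% and 2.39% with 1000 bp. Leaving out the 424 members that share bases with another member, an alternative added after the data were seen, stayed within the tolerance. No paired analysis was possible because a single pool without replicates was at hand.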

Other observations

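Noncoding RNAs that the annotation lists as ncRNA, and which are therefore no members, covered a wide range of levels. The trans-acting siRNA precursor loci TAS1A, TAS1B, TAS1C, TAS2 and TAS3 had 12.3%, 10.8%, 8.92%, 8.85% and 17.1% in this order (highest interval, at TAS3, 15.6 to 18.7%). The other such loci on the list were TAS3b with 0.145%, TAS4 (AT3G25795) with 0.163% over 42 cytosines and TASIR-ARF with 0.431%. GUT15 had 0.594% over 130 cytosines, and the phosphate-starvation RNA IPS1, listed as protein-coding, had no methylated call over 18, which allows a level of up to 0.365% (95% Wilson interval, counting error only). AT1G67105, also listed as ncRNA, had 90.8% over 82 cytosines.

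Evenly intermediate loci were rare. Of the 261 members at 25% to under 75%, 9 had at least 80% of their covered cytosines at 25% to 75%, and 8 of these overlap no protein-coding gene. The exception is AT3G06325, the very deep locus described above, with 11839 reads per cytosine. AT3G04725 (chromosome 3, 8949315 to 8949743) had 21 of 24 cytosines in that range, a level of 55.5% (52.8 to 58.1%), 57 reads per cytosine and flanks of 0.322%. AT1G07273 (chromosome 1, 16992570 to 16992951) had 14 of 17 cytosines in that range, 50.05% (47.0 to 53.1%), and flanks of 0.313%. Another of the 9, AT1G07277 (16992748 to 16992951), lies wholly inside AT1G07273, so the same cytosines are counted again. These loci were chosen after their values were seen.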
